A study of Mus musculus with 6 samples.

Results

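The baseline expression profile of mouse liver without added hormone was described from 2 arrays, those of the animals given vehicle, out of 6 arrays in the series. The profile covers every gene that had a probe set paired with that gene alone, which was 20380 of 22690 probe sets and 12393 genes, ranked by the mean linear signal of the vehicle arrays. All mice were wild-type C57Bl/6 males from Jackson Laboratories. Each was injected through the jugular vein with vehicle, purified FGF15 or recombinant FGF19, went without food for the 6 h until collection, and had its liver frozen in liquid nitrogen. Total RNA of whole liver was biotin-labelled and hybridised to the Mouse Genome 430A 2.0 array, a 1-colour array of short oligonucleotide probes, with 2 arrays in each of the 3 groups. The sources used here do not state the dose, what the vehicle contained or the age of the mice. Whether the 2 arrays of a group hold RNA of different animals is not in the labels either, so p-values below reflect spread between arrays, and that spread may be technical.

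The liver is built mostly of hepatocytes, which make the bulk of the plasma proteins, turn ammonia into urea, store and release glucose, oxidise and export fat, synthesise bile acids and modify drugs and toxins for excretion. Kupffer cells, the macrophages resident in the sinusoids, sinusoidal endothelium, stellate cells and bile duct cells make up most of the remainder. The ileum makes FGF15 in the mouse and FGF19 in humans, and these related hormones reach the liver through the portal blood, where the receptor FGFR4 and the co-receptor beta-Klotho receive them. The vehicle arrays show the liver that the hormone arrays are set against.

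Signals of different probe sets depend on how well each binds its transcript, and the array flattens at the bright end, so the order of signals is not an order of transcript numbers. Of genes with several probe sets, 4956 in all, the brightest and the dimmest differed by a median of 2.71-fold with vehicle. Each gene is given here by its probe set of highest mean over the 6 arrays. To mark the level at which a probe set no longer stood out, 59 genes of brain, eye, germ cells, pituitary, skin, pigment cells and teeth served as a background reference, and its 90th percentile was a signal of 48.1. The reference genes ran from 0.606 to 202 in mean signal, with Dct, a pigment enzyme, and Gnat1, a rod photoreceptor protein, at the upper end, so a gene a little above 48.1 cannot be told from the brightest of them. A gene near background is one under that signal on both vehicle arrays, which sets an upper bound and does not show that its RNA was absent.

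By these marks 4860 genes, 39.2% of those measured, lay near background in vehicle liver. Another 6293 lay between, and the top 10% of genes, 1240 in all, began at a signal of 688. The last gene inside was Eif6 at a mean of 687.72 and the first outside was Dynlrb1 at 687.59, so the bound itself separates nothing. The near-background counts of single lists below depend on the level chosen: at the 75th percentile of the reference, a signal of 25.6, they were smaller by over 1.5 times for 15 of the 46 lists. The median gene had a signal of 74.0. The top 10% of genes held 67.9% of the summed signal, the 100 brightest held 20.9% and the 20 brightest 5.69%. Of the 100 brightest, 72 stood in any list, and the remainder were not sorted by kind. Lists of secreted proteins held 35 of the 100, lists of metabolic enzymes 31 and lists of transporters 1. None stood in the lists of regulatory genes or of markers of other cell types.

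The brightest named gene was Apoa1, which encodes the main protein of high-density lipoprotein, with signals of 14544 and 14330 on the vehicle arrays. Next in rank came Fgb, at 13160 and 13050, and Fga, at 13023 and 12585, which encode chains of fibrinogen. Saa1, an acute-phase apolipoprotein, read 12657 and 12348. Each of these pairs lay within a few percent, and the arrays ranked these leading genes alike. Among the 20 brightest were also Serpina1b and Serpina1c, the mouse alpha-1 antitrypsins, Pzp, a broad protease inhibitor, and Ttr, the carrier of thyroid hormone and retinol-binding protein. The enzymes in this set were Mgst1, Gstp1, Cyp2e1, Bhmt and Scd1, which act on electrophiles, small solvents, homocysteine and saturated fatty acids. The remainder were B2m, the light chain of class I histocompatibility molecules, ND5 of the mitochondrial respiratory chain, Apoa2, Apoe, Fgg, Fabp1, which carries fatty acids in the cytoplasm, and the metallothionein Mt1. Alb, which encodes serum albumin, ranked 22 with 10506 and 9934.5. Saa1, Serpina1b, Ttr and Mt1 were read by probe sets of a kind that can bind related transcripts, as were 13 of the 100 brightest genes.

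Probe sets that could not be given to a single gene reached as high. The brightest of them, listed for several genes, read 14817.5 and 15219.8, and the next, listed with none, read 13359.9 and 16056.1. They are left out of every count here, and the ranks are ranks among named genes.

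**Figure D1:**
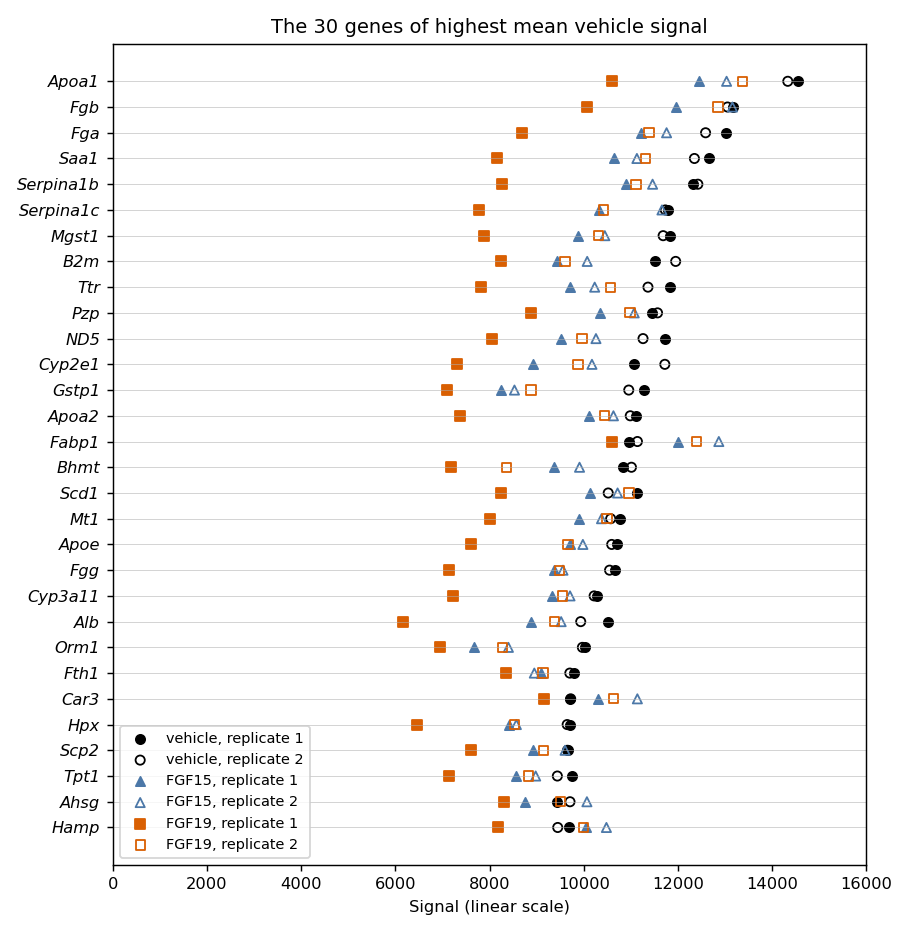
Linear signal (x axis) of the 30 genes of highest mean vehicle signal (y axis, by rank) on each of the 6 arrays. Black circles are the vehicle arrays, blue triangles FGF15 and orange squares FGF19, filled for replicate 1 and open for replicate 2. The vehicle pairs lie close together from Apoa1, at 14544 and 14330, to Hamp, at 9678 and 9446, and FGF19 replicate 1 reads lowest for all 30 genes.

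The sequence upstream of these genes was read from RefSeq's promoter table (build GRCm38.p6), which held 9887 of the 12393 genes and 80 of the 100 brightest. The 120 bases before the annotated start are printed for members chosen because they carry a motif of hepatocyte or tissue-restricted promoters. A housekeeping gene chosen because it carries none stands beside them. Capitals mark a TATA box (TATAAA), the C/EBP motif (TTGCNNAA) or the HNF1 motif (a consensus of 10 bases with a single free position). Each was searched on both strands and at any position, and the TATA box of Apob begins 60 bases before the start.
Fgb, fibrinogen beta chain, chr3:83049864-83049983, minus strand, C/EBP motif: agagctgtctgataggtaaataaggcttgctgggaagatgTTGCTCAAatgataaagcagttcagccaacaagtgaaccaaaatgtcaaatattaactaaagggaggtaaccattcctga
Cyp2e1, ethanol and solvent oxidation, chr7:140763699-140763818, plus strand, TATA box: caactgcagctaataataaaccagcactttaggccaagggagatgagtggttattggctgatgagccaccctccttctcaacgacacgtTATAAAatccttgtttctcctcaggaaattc
Fabp1, fatty acid carrier, chr6:71199759-71199878, plus strand, TATA box: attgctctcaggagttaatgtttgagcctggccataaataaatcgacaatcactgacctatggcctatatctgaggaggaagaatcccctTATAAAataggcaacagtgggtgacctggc
Apob, scaffold of very-low-density lipoprotein, chr12:7977557-7977676, plus strand, C/EBP motif and TATA box: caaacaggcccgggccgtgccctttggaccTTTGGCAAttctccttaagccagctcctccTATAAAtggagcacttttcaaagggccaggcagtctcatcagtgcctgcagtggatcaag
Hc, complement component 5, chr2:35061413-35061532, minus strand, HNF1 motif: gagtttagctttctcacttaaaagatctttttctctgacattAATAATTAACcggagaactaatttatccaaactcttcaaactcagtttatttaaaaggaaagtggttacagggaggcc
Eef1a1, translation elongation, chr9:78481725-78481844, minus strand, none of the motifs: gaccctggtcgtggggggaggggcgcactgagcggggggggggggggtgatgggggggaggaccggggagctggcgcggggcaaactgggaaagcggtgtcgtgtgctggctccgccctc

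Over the 250 bases before the start, the letters TATAAA were found on either strand for 20 of 80 genes (25%). These 80 were the genes among the 100 brightest with a promoter in the table. The share was 12.1% in the top 10% of genes, 7.66% in the genes between and 14.6% near background. It was 10.7% for all measured genes with a promoter and 12.4% for all 32851 promoters in the table. With TATAAA required on the gene's own strand, beginning 35 to 25 bases before the start, the count was 8 of those 80 genes (10%). By that stricter rule the share was 4.99% near background and 2.85% of all measured genes with a promoter. The C/EBP motif stood before 21 of those 80 genes (26.3%) and 28 of 95 genes of the secreted lists (29.5%), and before 9.98% of measured genes with a promoter and 9.56% of all promoters. The HNF1 motif was rarer, with 7 of 95 genes of the secreted lists (7.37%) and 0.371% of all promoters. CpG pairs were fewest before secreted genes, with a median of 3 in the 250 bases against 15 over all measured genes. Over all promoters, each counted singly, the median was 6. A gene with several annotated starts was counted if any of them held the motif, and was given the highest CpG count among them. The matches describe letters, not occupied sites.

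Among the kinds of list, secreted proteins had the largest share of members in the top 10% of genes. Of 116 measured genes, 95 were in the top 10% (81.9%), 4 were near background, and together they held 12.2% of the summed signal of all genes. For the plasma carriers, 14 of 15 were in the top 10%, including Hpx, which binds heme, at 9704 and 9647, and Ahsg, the calcium-binding fetuin-A, at 9436 and 9707. Serpina6, which carries glucocorticoid, read 934 and 884 at the lower end of the group. The exception was Afp, the carrier of the fetal liver, at 11.2 and 17.5. Its signal on both arrays lay below the background reference, where adult liver is known to place it.

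All 16 measured apolipoproteins and lipoprotein factors were in the top 10%, from Apoa1 down to Pltp, the phospholipid transfer protein, at 708.5 and 713. Apoc3, an inhibitor of triglyceride clearance, read 9515 and 9448, and Mttp, which loads lipid onto nascent lipoprotein, 1621 and 1613. Of the clotting and fibrinolysis genes, 18 of 20 were in the top 10%. Plg, the precursor of plasmin, had 8202 and 8205, F7, the vitamin K dependent starter of coagulation, 805 and 753, and Pros1, a cofactor of protein C, 398 and 433. No coagulation gene was near background.

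Complement genes covered much of the same range, with 16 of 18 in the top 10%. C9, the pore-forming end of the cascade, read 6050 and 5877, and Hc, the fifth component, 5375 and 5496. C2, a protease of the classical pathway, was just under the bound at 683 and 630, and Cfp, properdin, which is known chiefly from leukocytes, was lowest at 211 and 266. Among protease inhibitors and acute-phase proteins, 23 of 24 were in the top 10%. Orm1, an acid glycoprotein, had 10015 and 9970, Saa3 922 and 926, and Orm3, its less abundant paralogue, 298 and 278. Hamp, which encodes the iron hormone hepcidin, ranked 30 with 9678 and 9446. The acute-phase genes were thus bright on both vehicle arrays, and an untouched liver was not among the groups, so their level without an injection is not known from these arrays.

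Hormones and growth factors were the exception among the secreted lists, with 8 of 23 in the top 10%, 12 between and 3 near background, or none at the 75th percentile of the reference. Igfbp4, a binding protein of the insulin-like growth factors, had 8038 and 8138, Igf1 itself 3372 and 3324, and Agt, the precursor of angiotensin, 2532 and 2615. Igfbp1, which is made in fasting, was in the top 10% at 740.1 and 753. The lowest were Igf2, the fetal growth factor, at 30.6 and 29.3, Inhba at 13.5 and 42.6, and Fgf21, the fasting hormone of liver, at 37.1 and 17.2. These 3 genes lay near background, and for Inhba and Fgf21 the arrays differed by more than the signal of the lower one.

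**Figure D2:**
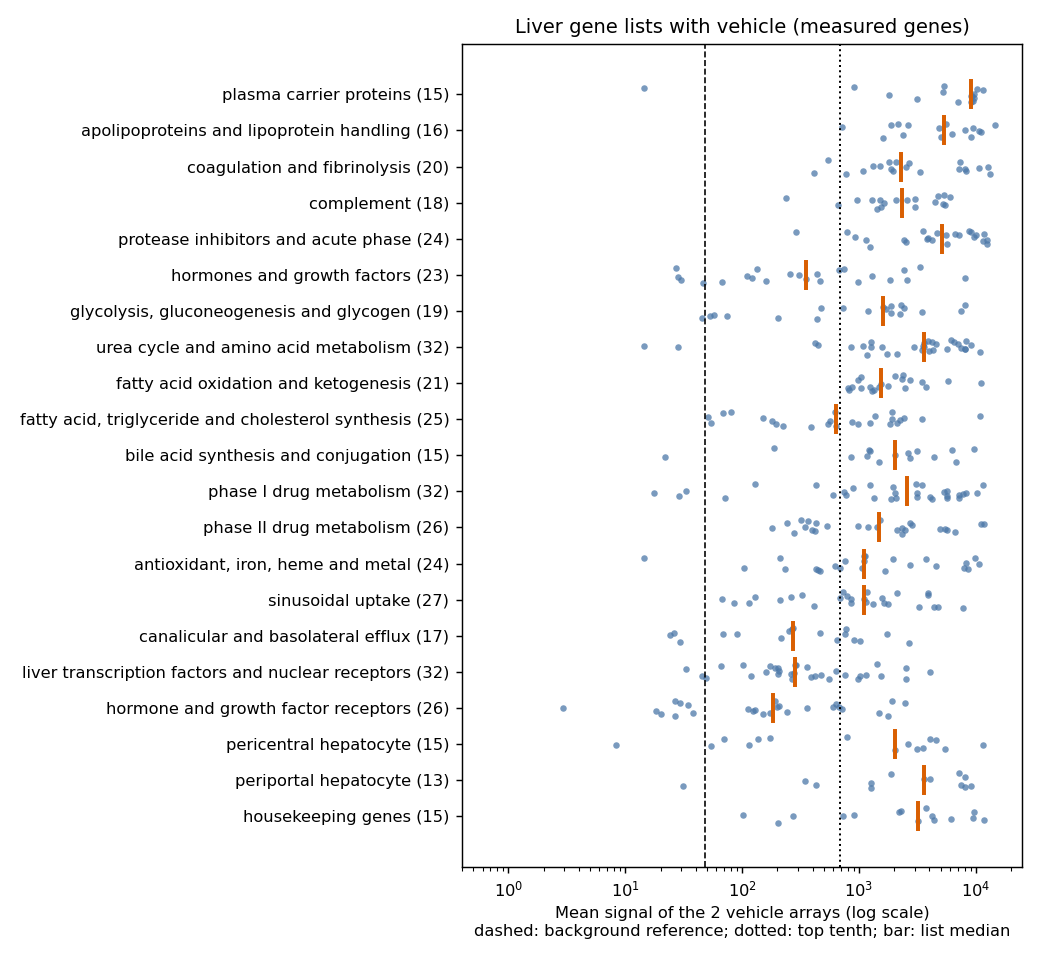
Mean signal of the vehicle arrays on a log scale (x axis) for the measured genes of each liver list (y axis, number of genes in brackets). Points are genes, the orange bar is the list median, the dashed line is the background reference of 48.1 and the dotted line the lower bound of the top 10% of genes, 688. The secreted and enzyme lists sit mostly to the right of the dotted line, while transcription factors and receptors lie mostly between the lines.

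Metabolic enzymes followed closely, with 142 of 194 genes in the top 10% (73.2%), 7 near background and 13.1% of the summed signal. In the urea cycle and amino acid list, 28 of 32 were in the top 10%. Cps1, which fixes ammonia at the start of the cycle, read 9162 and 9028, Arg1, which releases urea, 7946 and 8173, and Tdo2, which opens the tryptophan ring, 8350.3 and 7965. Kynu and Arg2, the mitochondrial arginase of other tissues, were near background at 33.4 and 23.4 and at 6.76 and 21.9. The liver form of arginase was therefore high and the other form not above the reference on either array.

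The same split between liver and other forms was seen for sugar metabolism, where 12 of 19 genes were in the top 10%. Fbp1 and Pck1, enzymes of gluconeogenesis, had 8136 and 8042 and 7246 and 7714, and G6pc, which releases free glucose, 1602 and 1604. The lowest were the hexokinases and the mitochondrial carboxykinase of other tissues, with Hk2 at 64.8 and 50.6, Hk1 at 55.0 and 51.6, and Pck2 at 39.0 and 50.8. These 3 sat at the reference, neither clearly above it nor all below.

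All 21 measured genes of fatty acid oxidation and ketogenesis were in the top 10%. Fabp1 read 10951 and 11138, Hadh, a dehydrogenase of the cycle, 3799 and 3635, and Cpt2, which reloads acyl groups on coenzyme A in mitochondria, 794 and 804. The genes of lipid synthesis were spread more widely, with 12 of 25 in the top 10% and none near background. Scd1, the stearoyl desaturase, had 11121 and 10518 and Hmgcs1, an early enzyme of cholesterol synthesis, 2486 and 2352. Its brain-type relative Scd2 had 45.7 and 63.1, and Mvd, a later step of the same cholesterol pathway, 46.4 and 55.8.

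Bile acid enzymes were in the top 10% for 13 of 15 genes. Scp2, a peroxisomal thiolase, had 9656 and 9653, Cyp7b1, the oxysterol hydroxylase, 6623 and 6839, and Cyp7a1, the rate-limiting enzyme of the pathway, 2677 and 2572. The pathway was thus read well above background on both arrays before any hormone was given. The exceptions were Cyp39a1, an oxysterol hydroxylase, at 168 and 203, and Cyp46a1, the cholesterol hydroxylase of neurons, which was near background at 27.0 and 16.4.

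Of 32 genes of phase I drug metabolism, 25 were in the top 10% and 3 were near background. Cyp2e1 read 11058 and 11720, Cyp3a11 10284 and 10219, and the alcohol dehydrogenase Adh1 7720 and 7878. Near background were Cyp1a1, known for its induction by dioxin-like compounds, at 38.3 and 27.8, Cyp2c39 at 38.7 and 19.4 and Cyp1b1 at 18.0 and 17.3. Phase II enzymes had 16 of 26 in the top 10% and none near background, from Mgst1 at 11820 and 11684 to the sulfotransferase Sult1b1 at 176 and 182. In the antioxidant, iron, heme and metal list, 15 of 24 were in the top 10%. Fth1, the ferritin heavy chain, had 9792 and 9703, while Mt3, the metallothionein of brain, had 1.96 and 26.8, near background on both arrays but far apart in ratio.

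Of 44 transporters, 25 were in the top 10% (56.8%) and 3 were near background. Uptake and efflux genes are given apart. Of genes for uptake from blood, 19 of 27 were in the top 10%, led by Slc27a2, which brings in fatty acids, at 7823 and 7780. Slc10a1, the sodium-dependent bile acid carrier NTCP, had 3960 and 3867, and Slc2a4, the insulin-regulated glucose carrier of muscle and fat, 90.9 and 80.3.

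Of genes for efflux into bile or back to blood, 6 of 17 were in the top 10%. Abca1, the cholesterol exporter, read 2719 and 2618, Abcb11, the bile salt export pump, 1689 and 1758, and Abcb4, the phospholipid flippase, 1025 and 1005. Slc51a, a subunit of the basolateral bile acid exporter, was near background at 38.5 and 19.7, as were the multidrug transporters Abcb1a, at 23.2 and 29.3, and Abcb1b, at 29.8 and 18.2. No uptake gene was near background.

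Regulatory genes were mostly of intermediate signal. Among liver transcription factors and nuclear receptors, 9 of 32 were in the top 10% and 22 lay between. Xbp1, a factor of the secretory pathway, had 4057 and 3984, Hnf4a, a master regulator of hepatocyte genes, 2530 and 2548, and Cebpb, a factor of the acute-phase response, 2424 and 2584. Nr0b2, which encodes SHP, a repressor of bile acid synthesis, was well below those at 120.3 and 116. Pparg and Esr1 lay astride the reference, at 33.1 and 58.4 and at 53.7 and 43.6.

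Of 26 hormone and growth factor receptors, 5 were in the top 10%, 13 between and 8 near background, or 3 at the 75th percentile of the reference and 5 at a signal of 32. Ghr, the growth hormone receptor, had 2462 and 2480.0, Egfr 1801 and 2013, and Lifr, a cytokine receptor, 1746 and 1784. The receptor pair of the hormones injected in the other groups read above the reference on both arrays by its brightest probe sets. Fgfr4 had 134 and 121 and its co-receptor Klb 186 and 197, both under the brightest reference gene, at a mean of 202. The dimmest probe set read a mean of 2.26 for Fgfr4, which has 5 probe sets, and 2.71 for Klb, which has 2. The insulin receptor Insr read 16.8 and 23.7 and the melanocortin receptor Mc2r 21.7 and 14.8. Insr is known to act in liver, and a reading near background bounds the signal of its probe set only.

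Genes of both hepatocyte zones were bright. Of 15 pericentral genes, which mark cells around the central vein, 9 were in the top 10%, and Glul, glutamine synthetase of the innermost layer, had 3563 and 3450.4. Lgr5, which acts in Wnt signalling in the same cells, read 57.5 and 51.5. Of 13 periportal genes, 10 were in the top 10%, with Cps1, Fbp1 and Arg1 above. Hsd17b13, a lipid droplet protein, was lowest of them at 16.8 and 46.1, near background. A gene restricted to few cells is diluted in whole liver, and fewer cells of a type and less RNA per cell cannot be told apart in these samples.

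Sex-linked and sex-biased genes were checked against the label of male mice. The Y-linked genes Eif2s3y, Uty and Kdm5d were above the reference on both arrays, with Eif2s3y at 338 and 392. Xist, the transcript of the inactive X chromosome, was near background at 14.3 and 19.5. Of 10 genes known to be higher in male liver, 9 were in the top 10%, among them the urinary protein gene Mup3 at 8160 and 8262, Cyp2d9 at 5557 and 5747 and Hsd3b5, a steroid dehydrogenase, at 1062 and 1088. Of 11 genes known to be higher in female liver, none was in the top 10% and 7 were near background. The highest was Cyp17a1, a steroid hydroxylase, at 187 and 163, and the lowest Hao2, a hydroxy acid oxidase, at 1.07 and 2.60. The male and female lists did not overlap in signal on these arrays, since the lowest male-list gene, Susd4, read 297 and 328. Nnt, a mitochondrial transhydrogenase gene that is truncated in one widely used C57BL/6 substrain, had 741 and 749, but whether this probe set lies in the deleted part was not determined.

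**Figure D3:**
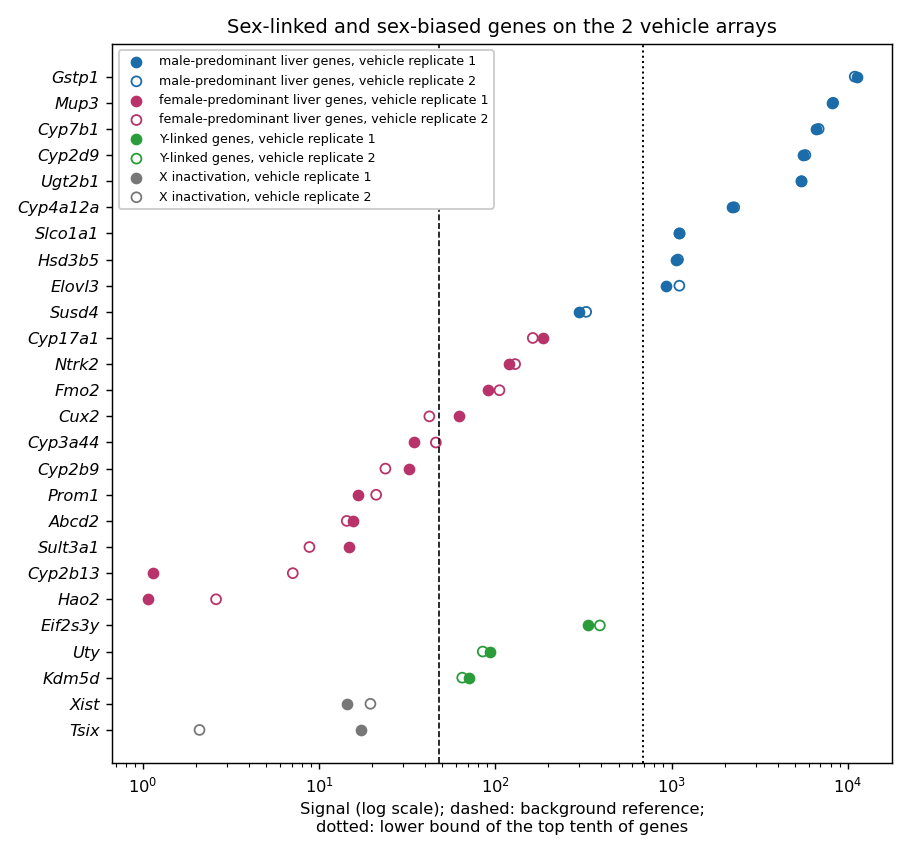
Signal on a log scale (x axis) of sex-linked and sex-biased genes (y axis) on the vehicle arrays, filled for replicate 1 and open for replicate 2. Colours give the list, the dashed line is the background reference of 48.1 and the dotted line the lower bound of the top 10% of genes, 688. The male-predominant genes lie to the right of the female-predominant genes, and Xist lies left of the reference.

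Housekeeping genes were above the reference in every case, with 12 of 15 in the top 10%. Actb, cytoplasmic actin, had 6211 and 5927, and Tbp, the TATA-binding protein, the lowest of them, 108 and 95.5. No housekeeping gene differed between the vehicle arrays by 1.5-fold.

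Markers of cells other than hepatocytes held 0.475% of the summed signal, with 5 of 149 genes in the top 10% and 87 near background (58.4%). Kupffer cell and macrophage markers stood out among them: 4 of 13 were in the top 10% and none was near background. Cd5l, a secreted macrophage protein, had 1200.3 and 1194, Csf1r, the receptor of macrophage colony-stimulating factor, 1056 and 977, and Clec4f, the lectin that marks Kupffer cells, 683 and 639. Marco, a scavenger receptor, was lowest at 64.9 and 77.0. The summed signal of the list was 6892 and 6821.

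Sinusoidal and other endothelial markers were above the reference for 17 of 18 genes, though none was in the top 10%. Clec4g, the sinusoidal lectin LSECtin, had 464 and 459, Lyve1, a hyaluronan receptor, 363 and 395, and Fcgr2b, an inhibitory Fc receptor, 397 and 352. Vwf, which marks endothelium of larger vessels, was near background at 24.5 and 33.3. Stellate cell and fibroblast markers were above the reference on at least 1 array for 13 of 16 genes. The proteoglycan gene Dcn was in the top 10% at 1722 and 1828, and Ecm1 read 530 and 506. Lrat, which esterifies stored retinol, lay at the reference with 46.7 and 52.4, and Des, the filament protein desmin, was near background at 34.5 and 5.11.

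Bile duct markers were mostly at the floor, with 6 of 8 near background, or 3 of 8 at the 75th percentile of the reference. Krt19, the keratin of duct cells, had 27.0 and 14.8, Epcam 45.9 and 33.1, and Sox9, a duct transcription factor, 26.1 and 60.0. Only Slc4a2, an anion exchanger that is not restricted to ducts, was clearly above, at 138 and 136. All 12 T and NK cell markers were near background, with Cd3e at 34.3 and 12.7, and so were 6 of 8 B and plasma cell markers. Of 8 neutrophil markers, 4 were near background, while S100a8 and S100a9, calcium-binding proteins of granulocytes, read 297 and 294 and 169 and 169. Of 7 erythroid markers, 4 were near background, and Alas2, the first enzyme of heme synthesis in red cell precursors, had 638 and 734.

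Markers of neighbouring organs checked for other tissue in the samples. All 12 muscle, 5 adipose and 6 islet markers and all 5 mesothelial markers were near background, as were 8 of 9 kidney markers and 8 of 10 of exocrine pancreas. The exceptions in the pancreas list were Cela1, an elastase gene, at 373 and 402, and Cel, a bile salt-activated lipase gene, at 51.3 and 14.0, above the reference on 1 array only. The digestive enzymes Ctrb1, Pnliprp1 and Cpb1 read at most 4.78. In the intestine list, Fabp2, the intestinal fatty acid carrier, had 421 and 424 and Slc10a2, the ileal bile acid carrier, 244 and 262, with Cdx2, Lct, Fgf15 and Cdx1 near background. Fgf15 itself had 1.84 and 3.70, so the gene for the mouse hormone gave no signal above the reference in vehicle liver.

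**Figure D4:**
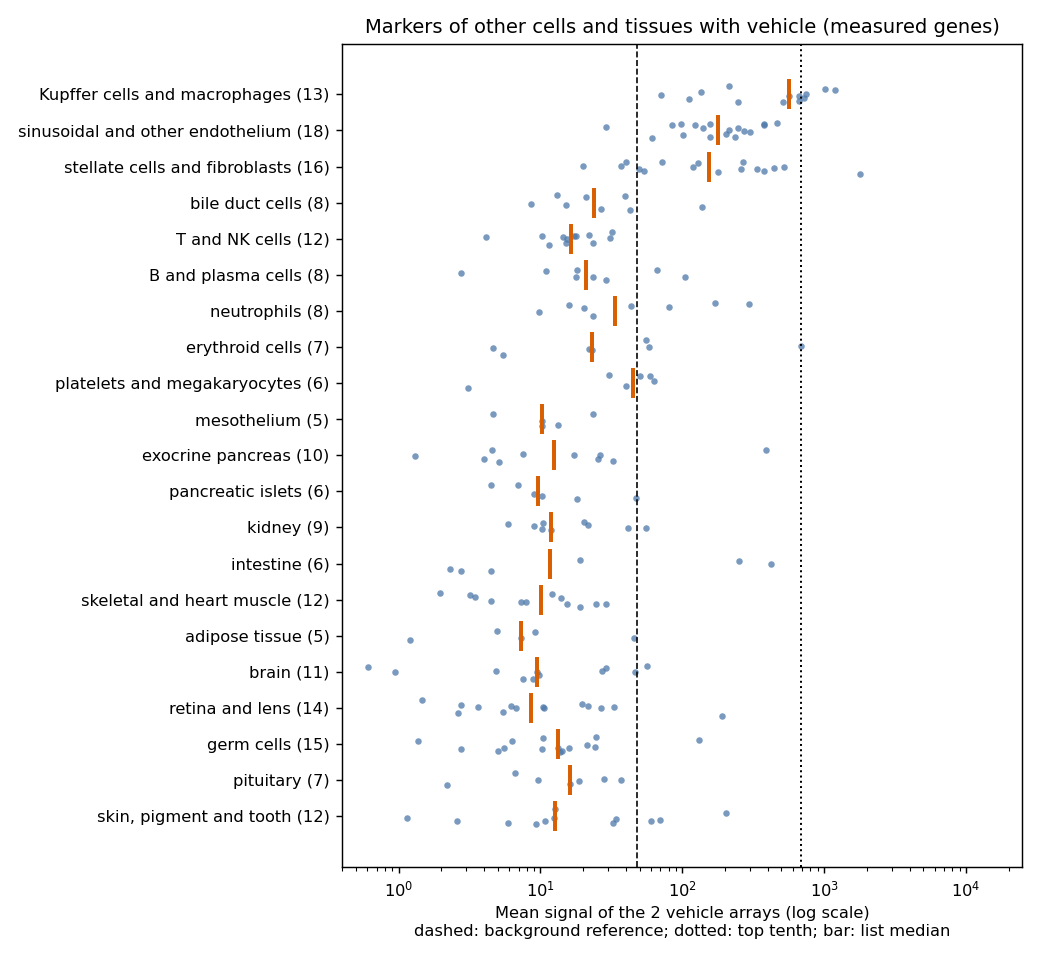
Mean signal of the vehicle arrays on a log scale (x axis) for measured markers of other cells and tissues and for the background genes (y axis, number of genes in brackets). Points are genes, the orange bar is the list median, the dashed line is the background reference of 48.1 and the dotted line the lower bound of the top 10% of genes, 688. Kupffer, endothelial and stellate cell lists have their medians right of the dashed line, and the lists of lymphocytes, ducts and other organs left of it.

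The vehicle arrays agreed closely for bright genes and poorly near background. On log2(signal + 32), the correlation across genes, which are not independent replicates, was 0.989 over all genes, 0.995 in the highest 25% by signal and 0.342 in the lowest 25%. The median gene differed between the arrays by 1.09-fold, and in the top 10% of genes by 1.03-fold. For 95% of genes in that band the arrays lay within 1.15-fold, and 3 genes of the band differed by over 1.5-fold. A rank among genes near background was repeated poorly. Between the arrays, 1207 of the 1240 genes of the top 10% and 98 of the 100 brightest were shared. There were 618 genes under the reference on 1 array and above it on the other.

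Of the 7533 genes above the reference on at least 1 vehicle array, 152 (2.02%) differed by over 1.5-fold, 93 higher on replicate 1 and 59 higher on replicate 2. The same count was 192 of 7163 genes between the arrays given FGF15 and 55 of 7013 between those given FGF19. The gene furthest apart was Tufm, a mitochondrial elongation factor, with 157 on replicate 1 and 545 on replicate 2, or 3.04-fold on the log2(signal + 32) scale. On the other 4 arrays it read between 178 and 231, so the second vehicle array stood alone. Next in that direction were Zc3h3, at 5.71 and 65.3, and Cngb1, at 1.61 and 50.4, both near the reference on the higher array. In the other direction Tmco4 had 74.4 and 15.0, H2-M10.1 66.7 and 11.6, and Hbb-b2, a beta globin, 121 and 38.0. In the top 10%, Ptprf, a receptor phosphatase, had 1116 and 557, and the other arrays read between 540.5 and 801. Apart from Tufm, the widest gaps thus lay among genes close to the reference, and any comparison that rests on those genes rests on 1 array.

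**Figure D5:**
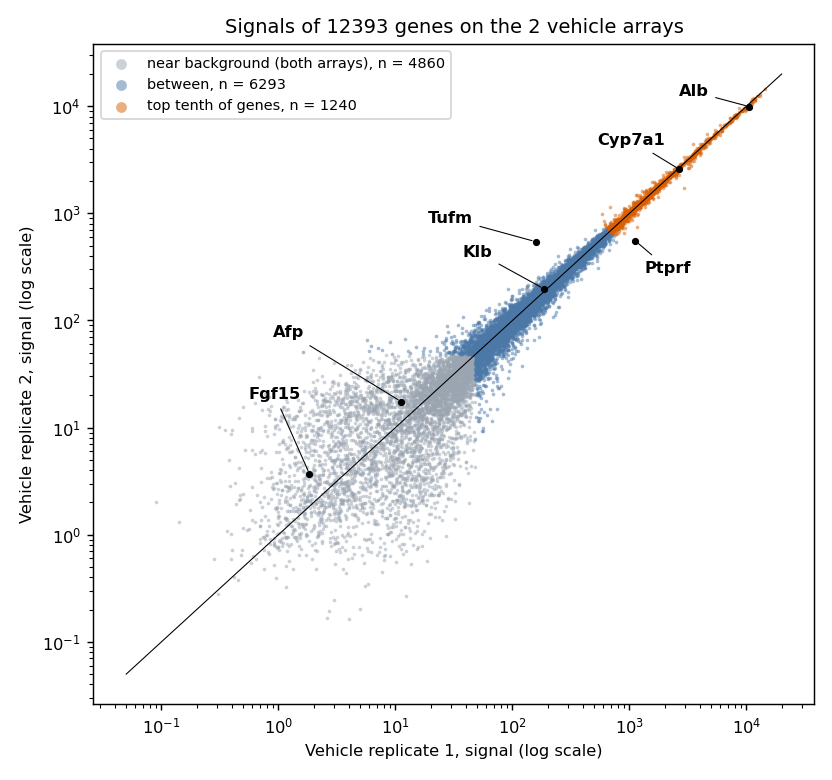
Signal of each of 12393 genes on vehicle replicate 1 (x axis) and replicate 2 (y axis), both on log scales, with the line of equality. Grey points are the 4860 genes near background on both arrays, blue the 6293 genes between and orange the 1240 genes of the top 10%. The cloud narrows to the line at high signals and widens below the reference, and Tufm and Ptprf stand off the line.

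The hormone arrays were compared with vehicle to ask which features of this profile differed after FGF15 or FGF19. Both comparisons use the same vehicle arrays. In limma's moderated test over 9685 genes, with Benjamini-Hochberg adjustment, 1218 genes differed with FGF15 (12.6% of those tested), 572 higher and 646 lower, and 1313 with FGF19 (13.6%), 609 higher and 704 lower. Without vehicle replicate 1 these counts were 538 and 599, and without vehicle replicate 2 they were 606 and 654. Without FGF15 replicate 2 the FGF15 count was 722, and without FGF19 replicate 1 the FGF19 count was 768. The split between higher and lower depends on the scale: with each array centred on its median it was 1261 higher and 332 lower for FGF15 and 1611 and 304 for FGF19. That centring moved the median of all genes from -0.05 to 0.09 and from -0.07 to 0.09 on the log2 scale. The 100 brightest vehicle genes read at a median of 0.894 and 0.938 of their vehicle mean with FGF15 and 0.768 and 0.924 with FGF19. The vehicle signal itself chose these genes, which favours ratios under 1 on the other arrays, and the size of that effect was not measured. Genes ranked after the first 1000 and up to 3000 read at 1.01 on both FGF15 arrays and at 1.02 and 0.989 on the FGF19 arrays. A spike-in control for the cre gene of phage P1 moved alike. It read 12724 and 12560 on the vehicle arrays, 10737 and 11669 with FGF15 and 8235 and 11375 with FGF19. The ratio of 3' to 5' actin probe sets, a sign of RNA quality, was 1.30 and 1.36 with vehicle, 1.35 and 1.34 with FGF15 and 1.63 and 1.39 with FGF19. The part of these shifts in the results below was not tested.

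Over all secreted members, FGF15 lowered 28 of 116 and raised 11, where 6.67% of all genes tested were lower and 5.91% higher. FGF19 lowered 39 and raised 9, where 7.27% of all genes tested were lower and 6.29% higher. The median differences were -0.14 and -0.22. With arrays centred on their medians the counts were 15 fallen and 15 risen for FGF15 and 16 and 18 for FGF19, so the excess of falls depends on the scale. Without vehicle replicate 1 they were 15 and 18 fallen, and without vehicle replicate 2, 14 and 17. Of the 20 brightest genes, which the vehicle signal itself chose, 1 was called lower with FGF15, Gstp1, and 5 with FGF19, Mgst1, B2m, ND5, Gstp1 and Bhmt, and none was called higher (limma). Apoa1 and Alb did not pass the test. Apoa1 differed by -0.18 ± 0.10 (SE) with FGF15 and -0.28 ± 0.10 with FGF19, at adjusted p of 0.308 and 0.109, and Alb by -0.15 ± 0.15 and -0.43 ± 0.15, at 0.584 and 0.101 (limma). The vehicle and hormone ranges of Apoa1 and Alb did not overlap, and each hormone array read lower. This was not particular to them: Fga, Saa1, Ttr and Fgg, among other bright genes, showed the same, while Fgb and Fabp1 did not. The share of all genes whose ranges did not overlap was not counted.

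Complement genes fell with both hormones. With FGF15 12 of 18 fell and none rose, and with FGF19 13 fell and none rose, with median differences of -0.45 and -0.42. Over all genes tested, 6.67% were lower with FGF15 and 7.27% with FGF19. C9 read 3365 and 3460 with FGF15 and 3093 and 3318 with FGF19. Its differences from vehicle were -0.80 ± 0.07 and -0.89 ± 0.07 (SE), with adjusted p of 4.75e-05 and 2.11e-05 in the limma fit. Hc fell by 0.72 and 0.81, and C8b, a chain of the same pore, fell by 0.90 and 0.89. For these 3 genes, chosen for the smallest p in the limma fit, no hormone array reached a vehicle array. The share of all genes with such a gap was not counted. With median centring 9 complement genes fell with FGF15, and 8 fell and 1 rose with FGF19. Without vehicle replicate 2 the FGF19 count was 7.

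Fatty acid oxidation and ketogenesis, a list in the top 10% throughout, went the other way. With each hormone 13 of 21 genes rose and none fell, with median differences of 0.37 and 0.33. The share of all genes tested that rose was 5.91% with FGF15 and 6.29% with FGF19. Quantile normalization gave 12 risen and 1 fallen with FGF19. Acadm, the medium-chain dehydrogenase, read 2005 and 2025 with vehicle, 2744 and 2762 with FGF15 and 2528 and 2805 with FGF19. Each hormone array read above both vehicle arrays, while the FGF15 and FGF19 readings overlapped. Acadm was named after its values were seen, and the share of all genes with such a gap was not counted. Without vehicle replicate 1 the FGF19 count was 7, and without vehicle replicate 2 the counts were 8 and 8. Pltp, from the lower end of the lipoprotein list, rose by 0.68 ± 0.07 and 1.71 ± 0.07, and Fabp2 of the intestine list by 1.47 ± 0.09 and 1.43 ± 0.09 (SE).

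Of the 10 male-predominant genes, FGF15 lowered 6 and raised 1, and FGF19 lowered 7 and raised 2. Among all genes tested, 6.67% were lower and 5.91% higher with FGF15, and 7.27% and 6.29% with FGF19. Hsd3b5 read 383 and 388 with FGF15 and 295 and 254 with FGF19, differences of -1.41 ± 0.08 and -1.86 ± 0.08 (SE) at adjusted p of 4.8e-06 and 5.62e-07 (limma). Cyp7b1 fell by 1.16 and 1.21 and Susd4 by 0.79 and 0.76. With median centring 3 fell and 2 rose with each hormone, and without either vehicle array the falls numbered 3 with FGF15 and 4 with FGF19, and without FGF15 replicate 2 they numbered 3.

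Markers of cells other than hepatocytes were compared in the same way. For scale, 6.67% of all genes tested were lower and 5.91% higher with FGF15, and 7.27% and 6.29% with FGF19. Of 13 Kupffer cell and macrophage markers, 11 fell with each hormone and none rose, and their summed signal was 3777 and 3883 with FGF15 and 3771 and 3731 with FGF19, against 6892 and 6821 with vehicle. Every one of the 13 was above the reference on a vehicle array, and the count stayed between 9 and 11 with any 1 array left out. Of 16 stellate cell and fibroblast markers, 5 fell with FGF15 and none rose, and 4 fell and 1 rose with FGF19, and their summed signal was 4663 and 4697 with vehicle, 3806 and 3930.0 with FGF15 and 4158 and 4265 with FGF19. Without either vehicle array in turn 3 fell with FGF15 and 2 with FGF19, without FGF19 replicate 1 the latter count was 2, and with median centring 1 fell and 3 rose with FGF19. Of 5 neutrophil markers tested, 3 fell with FGF15 and 1 with FGF19, the latter 0 without either vehicle array in turn, without FGF19 replicate 1 and with median centring. Of 18 endothelial markers, 2 fell with FGF15 and 1 with FGF19, near the share over all genes tested. The part of these markers in the differences of other lists was not tested.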

How the data were processed

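Per the values themselves, the authors deposited linear signal intensities, 1 for each probe set on each array, with each array scaled to a trimmed mean of 200.1. The summarising software is not given in the sources used here, and the number of arrays limits the precision. Platform annotation named the probe sets, with 20351 symbols updated through Entrez identifiers and 29 kept. Probe sets with several genes (691) or none (1555) and 64 controls were not named. Differences used log2(signal + 32), which understates changes of dim genes, and limma 3.58.1 in R 4.3.3 (lmFit, eBayes with trend) on all 6 arrays with group as the only term, leaving 3 residual degrees of freedom. Genes whose mean log2 value lay under the 25th percentile of all probe sets other than controls, a signal of 14.0, were left out (2708 genes). Tests were two-sided with a threshold of 0.05 on adjusted p, and the median standard error was 0.13. Steps were tested on simulated data. Figures used matplotlib 3.10.9 in Python 3.11.15.

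Gene lists (46, with 812 entries, 689 measured) and members were chosen with earlier results of these data known. Another 116 listed genes lacked a probe set of their own and were not analysed here. Named were the 20 brightest genes, up to 5 brightest and 3 dimmest members of each list, the 10 genes furthest apart each way, up to 3 called members of each list and a fixed set. Eif6, Dynlrb1, Lrat, Ptprf and Acadm were named after their values were seen. Alternatives were other pseudocounts (16, 64), quantile normalization, median centring, no filter or one at the 50th percentile of those probe sets, the mean of all probe sets, other background levels, a fit of only the arrays compared, a replicate block and each array left out.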

Additional observations from a re-analysis of the deposited data

How the results depend on the processing

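Of the alternatives to the counts of genes near background (4860), the 75th percentile of the reference gave 3141, and the others gave 3758 to 6037, with 4805 and 5138 from a single vehicle array. The count of genes over 1.5-fold apart between the vehicle arrays (152) was 262 with a pseudocount of 16, 67 with 64, 463 with no filter and 230 with the mean of all probe sets. The correlation of the vehicle arrays was 0.9843 and 0.9928 with these pseudocounts. The share of summed signal in the 100 brightest genes was 24.2% with the mean of all probe sets and 21.5% with the median of the reference subtracted, and 20.91% to 20.93% with 1 vehicle array left out. With 1 array left out, 538 to 896 genes were called with FGF15 and 599 to 902 with FGF19; leaving out vehicle replicate 1 gave the fewest, FGF15 replicate 2 gave 722 and FGF19 replicate 1 gave 768. The lone array was assumed to vary like the other groups. With a replicate block the counts were 1246 and 1380. Same-numbered arrays deviated together at correlations of 0.0808, -0.0217 and 0.0502, so the numbers were not taken as pairs. All other alternatives tried kept both counts within 1.5 times. For single lists, near-background counts moved by over 1.5 times for 15 of 46 lists at the 75th percentile of the reference, 10 at the 95th, 9 at a signal of 32 and 10 with the mean of all probe sets. At the 75th percentile the 3 efflux, 3 stellate cell and 3 hormone and growth factor genes became 0, the 3 phase I genes 1, the 6 bile duct genes 3 and the 8 receptors 3. With the mean of all probe sets the receptors were 4.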

Other observations

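Near background the vehicle arrays differed in the same direction for several lists of genes of other tissues. The summed signal of 15 germ cell genes was 385 on vehicle replicate 1 and 216 on replicate 2, that of 12 T and NK cell genes 259 and 169, and that of 12 muscle genes 182 and 103. For 14 retina and lens genes it was 338 and 345. Gnat1, the rod transducin, read 187 and 195, and Dct, a pigment enzyme, 225 and 179, although both stood in the lists that define the background reference. Prm1, a sperm protamine, read 172 and 91.8. Which transcript these 3 probe sets bound in liver was not tested.

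An alpha globin gene and a heme gene of red cells read apart. Hba-a1, an alpha globin, read 4.60 and 4.61, near background. Alas2, the erythroid heme enzyme, was close to the lower bound of the top 10% of genes with 638 and 734. Only 7 of 10 listed erythroid genes were measured, and probe sets shared by several genes were left out. The Hba-a1 reading therefore does not bound globin RNA in these samples, and Hbb-b2, a beta globin outside that list, read 121 and 38.0. Of 678 genes in the top 10% with several probe sets, 160 had another probe set near background.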
